A study of Mus musculus with 4 samples.

Results

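The adrenergic receptors examined here are 6 genes of the deposited liver table that were chosen by name, *Adra1a*, *Adra1b*, *Adra2a*, *Adra2b*, *Adrb1* and *Adrb3*, out of 22103 entries in all. *Adra2a* and *Adrb3* were picked because their values differed between the genotypes in these same livers, so their differences are described below and not tested. RNA came from 2 livers labelled wild type (WT) and 2 from Brg1LKO mice (labelled KO), with 1 library per liver. In the Brg1LKO mice *Smarca4*, the gene that encodes the chromatin remodeling protein Brg1, carries floxed alleles and is deleted by Cre driven from the *Alb* promoter. The deletion is therefore aimed at hepatocytes, and whether all other cells of the liver keep the gene was not tested. Per the labels and methods, the mice were young adult males that had drunk alcohol for 15 days, in the chronic ethanol feeding plus single gavage procedure (NIAAA feeding), and there was no group without alcohol. The labels number the livers within a genotype without naming the animals, and the study describes 2 mice of each genotype. The errors and p-values therefore measure only the spread between these few samples. *Adra1d* and *Adra2c* are described once among the levels, and other members of the family are not analysed here.

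Adrenergic receptors are cell surface receptors coupled to G proteins, and they bind the catecholamines adrenaline and noradrenaline. Alpha-1 receptors act through Gq proteins on phospholipase C and calcium, alpha-2 receptors act through Gi proteins to lower cAMP, and beta receptors act through Gs proteins to raise it. In the liver, catecholamines are known above all for driving glycogen breakdown and glucose output from hepatocytes.

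A single receptor made up most of the adrenergic receptor RNA. *Adra1b* accounted for 80.5% and 82.8% of the summed FPKM (fragments scaled to transcript length and library total, which allows genes of different length to be compared) of the 6 genes in WT 1 and WT 2, and for 93.0% and 87.0% in LKO 1 and LKO 2. *Adrb3* came next, and the other 4 genes together made up between 1.86% and 3.07% in the 4 livers. *Adra1b* did not differ between the genotypes beyond the spread between livers. *Adrb3* was lower in both Brg1LKO livers than in either WT liver, *Adra2a* was near the limit of detection in the Brg1LKO livers, and *Adrb1* was higher in both Brg1LKO livers, at no more than 26 reads in any liver.

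The 6 receptors share the fold of the family, and each coding sequence held 1 copy of the aspartate-arginine-tyrosine motif, which lies at the inner end of the third membrane span and takes part in G protein coupling. The stretch is shown because it lets the 6 genes be told apart at a motif that they share. The 63 coding bases around the motif, from the listed transcripts in GENCODE M21 (GRCm38), are printed from 5′ to 3′ on the coding strand, with the 9 bases of the motif in capitals.
Adra1a: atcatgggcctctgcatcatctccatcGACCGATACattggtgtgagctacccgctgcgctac
Adra1b: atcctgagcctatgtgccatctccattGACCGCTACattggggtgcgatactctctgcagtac
Adra2a: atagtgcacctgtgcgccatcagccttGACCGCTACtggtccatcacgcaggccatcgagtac
Adra2b: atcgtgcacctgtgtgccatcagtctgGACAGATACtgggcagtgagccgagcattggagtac
Adrb1: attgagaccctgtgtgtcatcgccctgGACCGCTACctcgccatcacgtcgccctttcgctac
Adrb3: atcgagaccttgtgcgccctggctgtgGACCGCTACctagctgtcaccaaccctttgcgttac
Within a subfamily the bases were closest, with 48 of 63 identical between *Adra1a* and *Adra1b*, 46 between *Adra2a* and *Adra2b* and 45 between *Adrb1* and *Adrb3*. Across subfamilies between 32 and 42 bases were identical. The longest run of identical bases at the same positions in any pair was 13, and no stretch of 50 bases anywhere in the 6 listed transcripts was shared by 2 of them. *Adra2a*, *Adra2b* and *Adrb1* shared no such stretch with a transcript of any other gene either. *Adra1a* shared 28 and *Adra1b* 6 stretches of 50 bases with other genes, out of 4233 and 3282. *Adrb3* shared 449 of 2746 with Gm45470, an antisense gene that overlaps its listed transcript on the opposite strand and has no entry in the table. The study describes stranded libraries, but whether strand was used in counting is not given in the sources used here, so reads of Gm45470 may be part of the *Adrb3* values.

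As a check of the genotype labels, *Smarca4* was at 1.78 and 1.95 FPKM in WT and at 0.608 and 0.579 FPKM in the Brg1LKO livers. The steps between low values gave library totals of 72599106 to 80935547 reads, and FPKM values on transcripts of the annotated length came out within 0.1 of a whole read in 88.2% to 89.4% of low values. The estimated reads below rest on these steps, it is not known whether a read is a single read or a pair, and any interval computed from them allows for counting error alone. Hepatocyte markers were high in every liver, with *Alb* between 10710 and 12490 FPKM. The WT 2 and LKO 2 livers had higher FPKM for most genes than WT 1 and LKO 1, with medians over all genes tested of 0.15 and 0.13 against −0.13 and −0.16 on the log2 scale, relative to each gene's mean. Macrophage markers had log2 fold changes above 0 for 8 of 8 genes, 2 of them (*Vsig4* and *Cd68*) past the threshold defined below, and their summed level was 31.1 and 31.0 FPKM in WT and 39.2 and 81.4 FPKM in the Brg1LKO livers. Erythroid markers summed to 14.8 and 26.5 FPKM in the WT livers, 108.8 FPKM in LKO 1 and 17.4 FPKM in LKO 2, with 1 gene (*Hbb-bs*) past the threshold as higher. Sinusoidal endothelial markers had log2 fold changes above 0 for 0 of 8 genes, and summed to 30.6 and 32.5 FPKM in WT, 23.7 FPKM in LKO 1 and 32.5 FPKM in LKO 2. Neutrophil markers summed to 11.2 FPKM in WT 1, 4.08 FPKM in WT 2, 16.2 FPKM in LKO 1 and 7.74 FPKM in LKO 2. In the other marker lists, those of hepatocytes and endothelial cells included, 0 genes were past the threshold, and the part of these cell types in the receptor values was not tested. In these bulk samples, fewer cells of a type and less RNA per cell cannot be told apart.

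**Figure D1:**
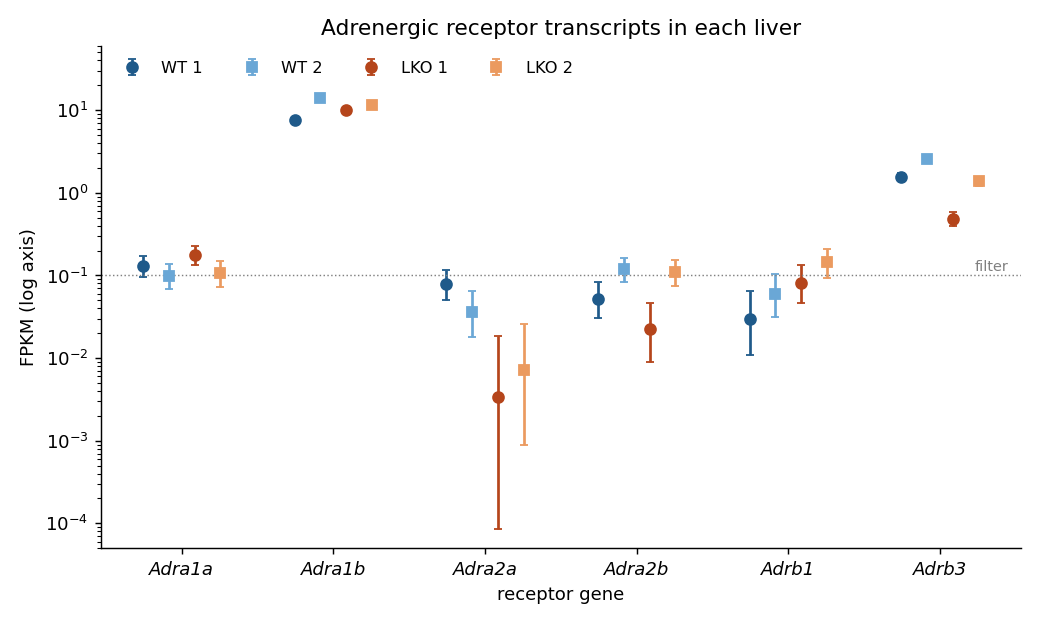
FPKM (log axis) of the 6 adrenergic receptor genes in each WT and Brg1LKO (LKO) liver, with points for single livers, bars for exact Poisson 95% intervals of the estimated reads, and a dotted line at the 0.1 FPKM filter that is applied to a gene's mean. *Adra1b* lies between 7.60 and 14.0 FPKM and *Adrb3* between 0.485 and 2.60 FPKM, while the other 4 genes stay below 0.2 FPKM in every liver.

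The order of the levels was the same in every liver at the top. *Adra1b* was above *Adrb3* in 4 of 4 livers, and the lowest *Adra1b* value, 7.60 FPKM, exceeded the highest *Adrb3* value, 2.60 FPKM. *Adrb3* was above *Adra1a* in 4 of 4 livers, with a lowest value of 0.485 FPKM against a highest of 0.176 FPKM. Below that, the ranges over the 4 livers overlapped for each pair of neighbours in the order of the means, *Adra1a*, *Adrb1*, *Adra2b* and *Adra2a*. *Adra1a* was above *Adrb1* in 3 livers, *Adrb1* above *Adra2b* in 2, and *Adra2b* above *Adra2a* in 3. Of these 4 genes, *Adra1a* and *Adra2a*, which are not neighbours in the order, did not overlap, with a lowest *Adra1a* value of 0.0994 FPKM against a highest *Adra2a* value of 0.0780 FPKM. The other alpha receptor genes of the table were at or near 0, with *Adra1d* listed at 0 in every liver and *Adra2c* at 1 read over the 4 livers. A listed 0 need not mean absence in this table, because *Gnas*, which encodes the Gs alpha subunit and is used by most cells, was also listed at 0 in every liver under ENSMUST00000087877.

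Of the alpha-1 receptors, *Adra1b* is the form best known from rodent hepatocytes. It is listed under ENSMUST00000067258, a transcript of 5 exons on the minus strand of chromosome 11 from 43774606 to 43901210 (GRCm38), and GENCODE M21 annotates 4 transcripts of the gene. WT 1 and WT 2 had 7.60 and 14.0 FPKM and LKO 1 and LKO 2 had 10.2 and 11.6 FPKM, which correspond to 2048, 3733, 2645 and 2810 reads. Both Brg1LKO livers lay between the WT livers, which differed from each other 1.85-fold, far more than counting error at this depth. The means were 10.8 ± 4.55 FPKM (SD, n = 2) in WT and 10.9 ± 1.03 FPKM (SD, n = 2) in the Brg1LKO livers. The log2 fold change, taken as Brg1LKO minus WT of log2(FPKM + 0.1), was 0.07 (standard error 0.37, limma adjusted p = 1.00, Benjamini-Hochberg over 12346 genes), and no difference was detected. Across the alternatives the fold change ran from −0.37 without WT replicate 1 to 0.51 without WT replicate 2, and the adjusted p from 0.999 to 1. *Adra1b* was more abundant than 88.9% of the 16853 entries above 0. A high adjusted p is no evidence here that a gene was unchanged. Even *Smarca4*, the deleted gene, had a limma adjusted p of 0.9999, with an unadjusted p of 0.00055 from the same test. The adjusted p-values given for the other genes carry the same limit.

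*Adra1b* has 2 annotated starts in RefSeq (GRCm38.p6), and the listed transcript begins near the upstream one. The 250 bases before each start are shown because they differ sharply in base composition. They are printed 5′ to 3′ on the minus strand, with matches to GGGCGG, a GC box, on either strand in capitals. The first lies at chr11:43901238-43901487 and the second at chr11:43836490-43836739, within an intron of the listed transcript.
Adra1b upstream start: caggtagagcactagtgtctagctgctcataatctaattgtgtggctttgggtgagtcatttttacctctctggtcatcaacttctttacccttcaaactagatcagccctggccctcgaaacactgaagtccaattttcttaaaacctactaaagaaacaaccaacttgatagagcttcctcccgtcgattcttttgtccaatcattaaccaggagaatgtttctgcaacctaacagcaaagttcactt
Adra1b downstream start: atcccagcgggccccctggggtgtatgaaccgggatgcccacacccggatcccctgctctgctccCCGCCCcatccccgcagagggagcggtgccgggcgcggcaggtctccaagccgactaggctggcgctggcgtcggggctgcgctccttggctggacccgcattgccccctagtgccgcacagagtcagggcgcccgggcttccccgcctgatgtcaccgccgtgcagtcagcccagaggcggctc
The upstream stretch had 41.6% GC and 3 CpG, and the downstream one had 72.8% GC and 22 CpG, against a median of 52.4% GC over 32817 promoter windows of the same length. The upstream stretch held no GC box and the downstream one held 1, and 32.7% of all windows held at least 1. The corresponding windows of *Adra2a*, *Adra2b* and *Adrb1* were rich in GC (67.6%, 66% and 74%) and held 1, 2 and 1 GC boxes. None of these 5 windows held TGACGTCA, the cAMP response element, which 1.55% of all windows held. The values are 1 number per gene and do not show which start was used.

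*Adra1a*, the other alpha-1 receptor, is listed under ENSMUST00000159068, one of 6 annotated transcripts, on the plus strand of chromosome 14 from 66635341 to 66729984. It was at 0.130 and 0.0994 FPKM in WT and at 0.176 and 0.106 FPKM in the Brg1LKO livers, from 45, 34, 59 and 33 reads. The groups overlapped, with the highest value in LKO 1. Its log2 fold change was 0.16 (standard error 0.37, limma adjusted p = 1.00). Summed over the livers of a genotype, the rate of reads in Brg1LKO was 1.24 times that in WT (exact 95% interval 0.910 to 1.70), which covers counting error only.

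*Adra2a*, an alpha-2 receptor that lowers cAMP, was the least abundant of the 6 genes in the Brg1LKO livers. It is a gene of 1 exon on the plus strand of chromosome 19, listed from 54044151 to 54048982 under ENSMUST00000036700. WT 1 and WT 2 had 0.0780 and 0.0362 FPKM and LKO 1 and LKO 2 had 0.00337 and 0.00725 FPKM. At the annotated length of 4832 bases these values are not whole reads. The length that turns all 4 into whole reads, and lies between the coding length and the annotated length, is 3801 bases, which gives 24, 11, 1 and 2 reads. Both Brg1LKO livers lay below both WT livers, and even the WT livers held no more than 24 reads of the gene. The rate of reads in WT was 10.9 times that in Brg1LKO, with an exact 95% interval of 3.45 to 55.6. The interval describes the counting error of these few reads, leaves out the spread between livers and is no test of the genotype, since the gene was picked for this difference. Of 2320 genes with a mean under 0.1 FPKM and at least 10 estimated reads, 16.7% had both Brg1LKO livers below both WT livers. As log2(FPKM + 0.1) the difference came to −0.56. Adding 0.01 in place of 0.1 made it −2.07, and adding 1 made it −0.07. Its size also depended on WT replicate 1, without which it was −0.37.

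*Adra2b*, the second alpha-2 receptor, is a gene of 1 exon on the plus strand of chromosome 2, listed under ENSMUST00000104934 from 127363208 to 127367221. Its values were 0.0523 and 0.118 FPKM in WT and 0.0223 and 0.110 FPKM in the Brg1LKO livers, from 17, 38, 7 and 32 reads. The lowest value was that of LKO 1, and the groups overlapped. The livers of one genotype differed 2.26-fold in WT and 4.92-fold in Brg1LKO, more than the group means, of which the Brg1LKO mean was 77.4% of the WT mean. The difference on the log2 scale was −0.19 and turned to 0.07 without WT replicate 2 and to 0.20 without LKO replicate 1. With no filter on low values, limma gave an adjusted p = 1.00 (log2 fold change −0.19, standard error 0.32). *Adra2b*, close in sequence to *Adra2a*, thus had no detected difference, and the difference between the pair was not tested.

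**Figure D2:**
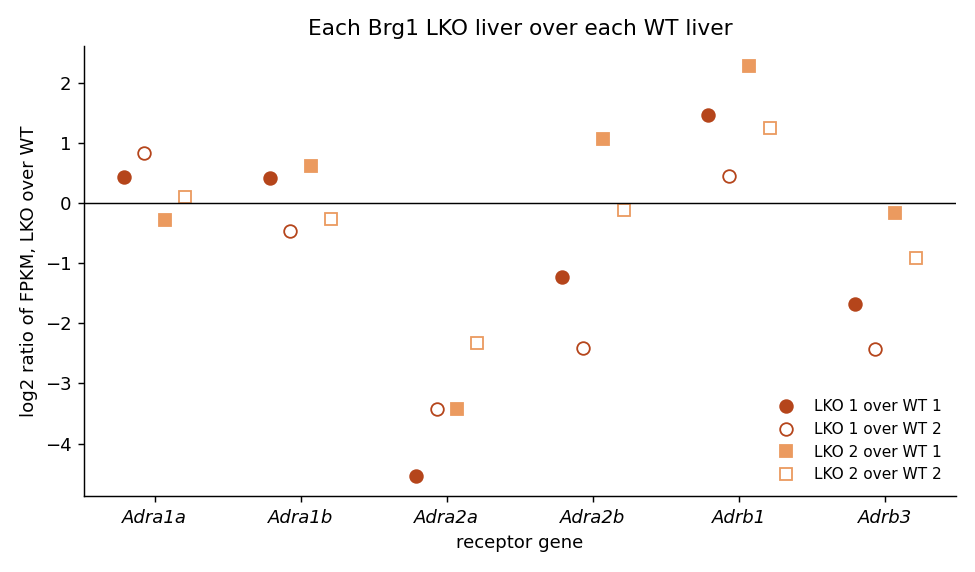
Log2 ratio of FPKM of each Brg1LKO liver over each WT liver (4 ratios per gene, no pseudocount) for the 6 receptor genes; filled symbols are ratios over WT 1 and open symbols ratios over WT 2. All 4 ratios lie below 0 for *Adra2a* and *Adrb3*, which were picked for their change, and above 0 for *Adrb1*. Those of *Adra1a*, *Adra1b* and *Adra2b* lie on both sides. The genotypes did not overlap for 20.7% of the genes tested. Among 2320 genes with a mean under 0.1 FPKM and at least 10 estimated reads, the share was 32.1%.

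*Adrb1*, the beta receptor best known from heart muscle, lies on the same chromosome as *Adra2a*, on the plus strand of chromosome 19, with its listed transcript ENSMUST00000038949 from 56722199 to 56725150. It was at 0.0298 and 0.0603 FPKM in WT and at 0.0822 and 0.144 FPKM in the Brg1LKO livers. The values are whole reads at a length of 2491 bases, not at the annotated 2952, and then correspond to 6, 12, 16 and 26 reads. Both Brg1LKO livers were above both WT livers, and the lowest ratio of a Brg1LKO liver to a WT liver was 1.36. Of the 2320 low genes described above, 15.3% had both Brg1LKO livers above both WT livers. The mean was 0.0450 ± 0.0216 FPKM (SD, n = 2) for WT and 0.113 ± 0.0436 FPKM (SD, n = 2) for Brg1LKO, and the rate of reads in Brg1LKO was 2.49 times that in WT (exact 95% interval 1.4 to 4.59, counting error only). Its mean was under the filter, and with no filter the log2 fold change was 0.55 (standard error 0.21, limma adjusted p = 1.00 over 16853 genes). The difference was 0.34 without LKO replicate 2. The unadjusted p was under 0.05, but the change was under 2-fold on this scale, so *Adrb1* did not pass the threshold of an unadjusted p under 0.05 and more than 2-fold.

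*Adrb3*, the beta receptor that drives lipolysis in fat cells, was the second most abundant member. It is listed under ENSMUST00000081438, a transcript of 4 exons on the minus strand of chromosome 8 from 27225776 to 27229588, and 5 transcripts of the gene are annotated. WT 1 and WT 2 had 1.55 and 2.60 FPKM and LKO 1 and LKO 2 had 0.485 and 1.37 FPKM, from 350, 580, 106 and 279 reads. Both Brg1LKO livers were below both WT livers, but LKO 2 reached 1.37 FPKM against 1.55 FPKM in WT 1, and the Brg1LKO livers differed from each other 2.83-fold. The means were 2.07 ± 0.742 FPKM (SD, n = 2) in WT and 0.930 ± 0.629 FPKM (SD, n = 2) in the Brg1LKO livers, 44.9% of the WT mean. Over all genes tested, 10% had both Brg1LKO livers below both WT livers. The log2 difference was −1.18, but leaving out LKO replicate 1 made it −0.52 and leaving out LKO replicate 2 made it −1.85. It was −0.83 without WT replicate 2, and −0.69 when 1 was added to the FPKM in place of 0.1. Because *Adrb3* is a gene of fat cells, their markers were examined. Of 6 adipocyte markers, 4 were listed at 0 in all 4 livers, *Adipoq*, the defining gene, was at 0.01 FPKM in LKO 1 and at 0 elsewhere, and the summed level was 0.0131 to 0.0194 FPKM in WT and under 0.05 FPKM in the Brg1LKO livers. The part of fat cells in the *Adrb3* values was not tested.

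**Figure D3:**
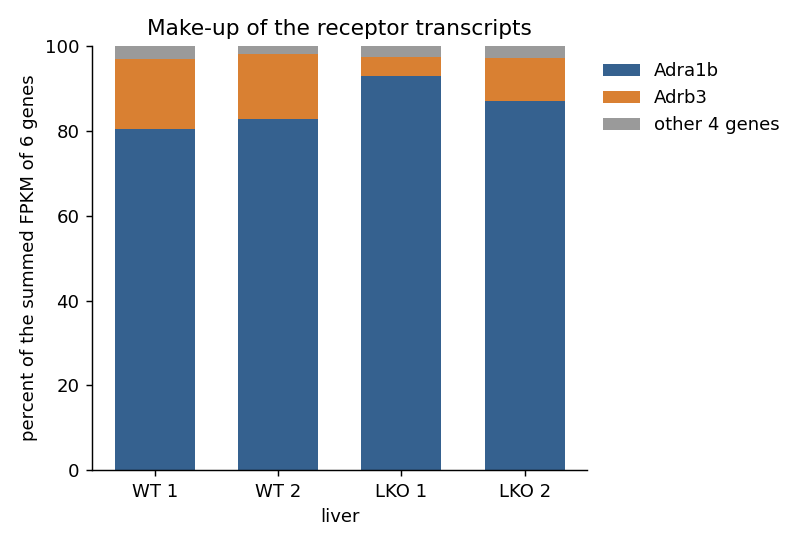
Percent of the summed FPKM of the 6 receptor genes that came from *Adra1b*, *Adrb3* and the other 4 genes, 1 stacked bar per liver. The *Adrb3* share is 16.4% and 15.3% in WT and 4.44% and 10.3% in the Brg1LKO livers.

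The summed FPKM of the 6 genes was 9.43 and 16.9 in WT and 10.9 and 13.4 in Brg1LKO, so the sums of the genotypes overlapped. *Adra1b* exceeded *Adrb3* 4.91-fold in WT 1, 5.4-fold in WT 2 and 20.9-fold and 8.45-fold in the Brg1LKO livers. The mean of 3 members, *Adra1a*, *Adra1b* and *Adrb3*, passed the filter of 0.1 FPKM, and *Adrb3* was picked for its change. Of the other 2, 0 were past the threshold, beside 0.98% of all genes tested, 0.437% as higher and 0.543% as lower. The genotypes did not overlap for *Adrb3* and overlapped for *Adra1a* and *Adra1b*, and they did not overlap for 20.7% of the genes tested. The genes nearest in pattern were named by the root mean square distance between the log2(FPKM + 0.1) values of the 4 livers, each gene centred on its own mean. For *Adra1b* they were *Ogg1* (0.0161), *Ptp4a3* (0.0239) and *Glb1l* (0.0339). For *Adrb3* they were A230083G16Rik (0.0919), *Tmem158* (0.115) and *Coprs* (0.121), of which A230083G16Rik and *Coprs* were lower in both Brg1LKO livers than in either WT liver. *Tmem158* was listed at 0 in LKO 1, and its 0.143 FPKM in LKO 2 was above the 0.128 FPKM of WT 1. The genes near *Adrb3* were picked for their likeness to a gene that was itself picked for its difference. Their lower values in the Brg1LKO livers therefore follow largely from the choice. Over all genes tested, 10% had both Brg1LKO livers below both WT livers. With 4 livers, such likeness is a description only.

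The genes around the receptors were described in 12 lists with 152 genes, from G proteins to the enzymes that clear catecholamines. Of the 95 genes tested, 0 were past the threshold as higher and 2 as lower in the Brg1LKO livers, or 2.11%, against 0.98% over all genes tested (limma, 247 of 12346 genes with an unadjusted p under 0.05 and 0 with an adjusted p under 0.05). The median log2 fold change was 0.01 over the lists together and −0.02 over all genes tested, and 50 of the 95 genes were above 0. Without WT replicate 2, or with 1 added to the FPKM in place of 0.1, 0 of the lists' genes were past the threshold.

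**Figure D4:**
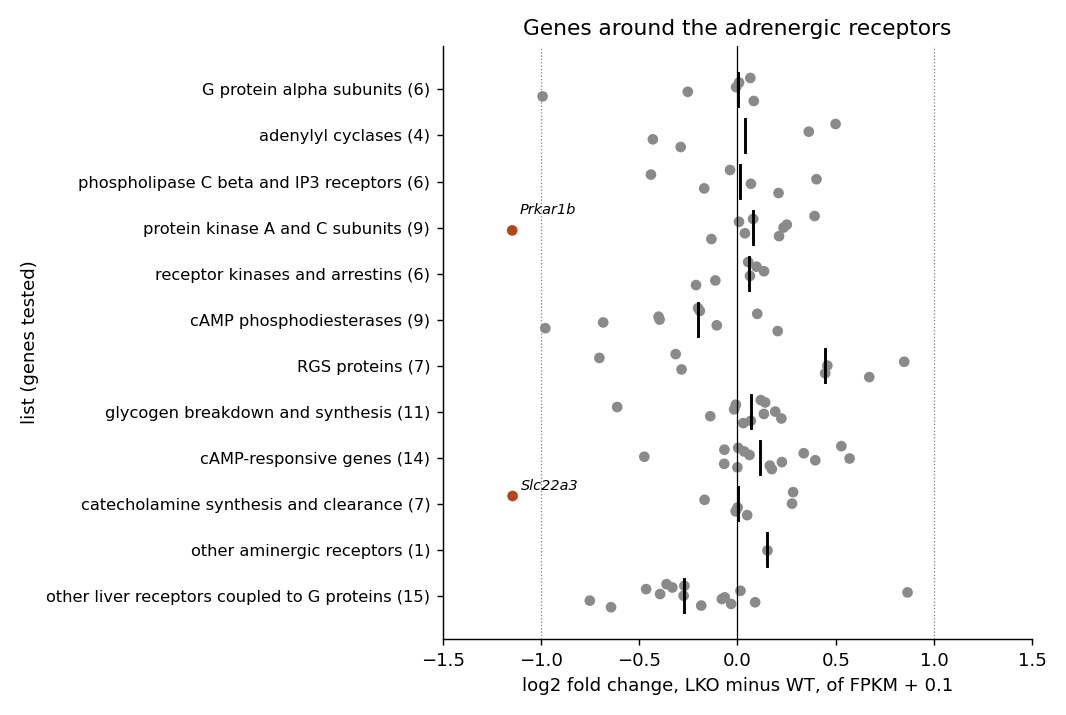
Log2 fold change (Brg1LKO minus WT, of FPKM + 0.1) of the genes tested in 12 lists around the adrenergic receptors, with 1 point per gene, black bars for list medians, dotted lines at 2-fold and the number of genes tested in parentheses. *Prkar1b* and *Slc22a3*, shown in red, are past the threshold, and the other 93 genes are not.

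At the first step after the receptor, 6 of 10 G protein alpha subunits were tested, 0 were past the threshold, and the median was 0.00. *Gnai2*, the most abundant of the list, was at 17.6 ± 2.01 FPKM (SD, n = 2) in WT and 17.4 ± 0.680 FPKM (SD, n = 2) in the Brg1LKO livers. *Gna14*, a Gq family subunit, had the largest change, from 0.321 and 0.429 FPKM to 0.125 and 0.151 FPKM. Its log2 fold change of −0.99 (adjusted p = 1.00 from limma) stayed just short of 2-fold on the scale of log2(FPKM + 0.1). Without the added 0.1, the group means were 0.375 FPKM in WT and 0.138 FPKM in the Brg1LKO livers, more than 2-fold apart. *Gnaq* and *Gna11*, the subunits through which alpha-1 receptors signal, had log2 fold changes of 0.07 and 0.08. Among 6 phospholipase C beta and IP3 receptor genes tested, which carry the calcium signal, 0 passed, with a median of 0.02 and a range of −0.44 (*Plcb3*) to 0.40. *Itpr2*, the most abundant of these, was at 2.26 ± 0.427 FPKM (SD, n = 2) in WT and 1.99 ± 0.0116 FPKM (SD, n = 2) in Brg1LKO.

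On the cAMP side, 0 of 4 adenylyl cyclase genes tested and 0 of 9 phosphodiesterase genes passed. *Adcy9*, which makes cAMP and was the most abundant cyclase, was at 1.58 and 1.59 FPKM in WT and at 3.35 and 1.55 FPKM in the Brg1LKO livers, so its higher mean came from LKO 1 alone. The phosphodiesterases, which break cAMP down, had a median of −0.20, with 2 of 9 above 0. *Pde4a* had the largest change of them, from 0.252 and 0.549 FPKM to 0.129 and 0.157 FPKM (log2 fold change −0.98, limma adjusted p = 1.00). It stayed just short of 2-fold on the scale of log2(FPKM + 0.1). Without the added 0.1, its group means were 0.4005 FPKM in WT and 0.143 FPKM in the Brg1LKO livers, more than 2-fold apart. *Pde3b*, the most abundant, had a log2 fold change of 0.20. Of 9 protein kinase A and C genes tested, *Prkar1b* was past the threshold as lower. The gene encodes a regulatory subunit of protein kinase A best known from neurons. It was at 0.169 and 0.218 FPKM in WT and at 0.0146 and 0.0522 FPKM in the Brg1LKO livers, with a log2 fold change of −1.15 (standard error 0.38, limma adjusted p = 1.00), from an estimated 95 reads over the 4 livers. *Prkar1a*, the main regulatory subunit of the list, was at 9.24 and 9.49 FPKM in the group means, and the median of the list was 0.08.

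Among the proteins that turn receptors off, 0 of 6 receptor kinase and arrestin genes passed, and their fold changes lay between −0.21 (*Arrb1*) and 0.14. *Grk2*, the kinase best known for desensitizing beta receptors, was at 7.90 ± 1.59 FPKM (SD, n = 2) in WT and 8.26 ± 1.63 FPKM (SD, n = 2) in Brg1LKO. The RGS proteins, which speed the shut-off of G proteins, had the highest median of any list with more than 1 gene tested, 0.45, with 4 of 7 above 0 and 0 past the threshold. *Rgs2* went from 0.262 and 0.377 FPKM to 0.724 and 0.579 FPKM (log2 fold change 0.85, limma adjusted p = 1.00). Without the added 0.1, its group means were 0.319 FPKM in WT and 0.652 FPKM in the Brg1LKO livers, just over 2-fold apart. *Rgs5*, the most abundant, had a log2 fold change of −0.31. The other 3 members above 0 were *Rgs1* (0.67), *Rgs10* (0.45) and *Rgs19* (0.46), which leukocytes are known to express. Each of these 3 exceeded both WT livers in 1 Brg1LKO liver only, which was LKO 1 for *Rgs1* (1.48 FPKM) and LKO 2 for *Rgs10* (0.376 FPKM) and *Rgs19* (1.26 FPKM). The summed macrophage markers given above were highest in LKO 2, and their part in these values was not tested.

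No gene of glycogen metabolism or of the cAMP response passed the threshold. Of 11 genes of glycogen breakdown and synthesis, 0 passed and the median was 0.07. *Pygl*, the liver glycogen phosphorylase, was at 44.1 ± 13.7 FPKM (SD, n = 2) in WT and 47.5 ± 3.80 FPKM (SD, n = 2) in Brg1LKO, and *Ppp1r3c*, which targets a phosphatase to glycogen, had the largest change, −0.61. Of 14 cAMP-responsive genes tested, 0 passed and 10 were above 0, with a median of 0.11. *Fbp1*, an enzyme of glucose production, was at 324 ± 88.4 FPKM (SD, n = 2) in WT and 423 ± 94.7 FPKM (SD, n = 2) in Brg1LKO. *Fos*, an immediate early gene, had the largest change, 0.57, which came from 4.84 FPKM in LKO 2 against 0.595 FPKM in LKO 1.

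Of 7 catecholamine genes tested, *Slc22a3* was past the threshold as lower in the Brg1LKO livers. It encodes an organic cation transporter that takes up catecholamines outside neurons, and it was at 0.840 and 1.13 FPKM in WT and at 0.395 and 0.378 FPKM in the Brg1LKO livers (log2 fold change −1.15, standard error 0.35, limma adjusted p = 1.00). *Sult1a1*, a sulfotransferase and the most abundant of the list, had 0.28, and the monoamine oxidases *Maoa* and *Maob* had 0.00 and 0.28. The synthesis genes *Th*, *Dbh* and *Pnmt* were among the 6 of 13 that did not pass the filter.

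Of 26 genes for dopamine, serotonin, histamine, acetylcholine and trace amine receptors, 18 were listed at 0 in all 4 livers and 1 passed the filter and was tested. That 1 was *Chrm3*, a muscarinic receptor, at 0.454 ± 0.0852 FPKM (SD, n = 2) in WT and 0.516 ± 0.120 FPKM (SD, n = 2) in Brg1LKO. *Adra1b* was close to the level of the glucagon receptor *Gcgr*, which was at 9.90 and 16.7 FPKM in WT and 9.62 and 15.7 FPKM in the Brg1LKO livers. Of the 15 other liver receptors coupled to G proteins that were tested, 0 passed, 3 were above 0 and the median was −0.27. *P2ry6*, a nucleotide receptor, had the largest change, from 0.204 and 0.174 FPKM to 0.251 and 0.689 FPKM (log2 fold change 0.87, adjusted p = 1.00 from limma). Both Brg1LKO livers were above both WT livers, with most of the difference in LKO 2. That liver also had the highest summed macrophage markers, and their part in the *P2ry6* values was not tested.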

How the data were processed

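RNA of 2 WT and 2 Brg1LKO livers was analysed. The members and gene lists were chosen with earlier results of these data known. The values are FPKM that the authors deposited, 1 column per liver. The methods name Trimmomatic for trimming, HISAT2 for mapping (mouse build GRCm38) and Cufflinks for FPKM, while the submitters' processing notes name HISAT2 2.0.4 and StringTie 2.1.4. No normalization between livers is stated, so abundant genes that change shift the FPKM of others.

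Of the 22103 entries, 27 symbols turned into dates were restored from GENCODE M21, which gave lengths for 98.3% of transcripts. Of entries sharing a symbol, the most abundant kept it. Of 249 listed genes, 248 matched, 4 of them under another symbol. Library totals were estimated from the steps of low values on transcripts of at least 2000 bases with up to 20 reads. Intervals are exact Poisson or exact binomial and cover counting error only.

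The 12346 genes averaging 0.1 FPKM or more were compared on log2(FPKM + 0.1) by the moderated test of limma 3.58.1 with an intensity trend, run in R 4.3.3. This scale understates changes of low genes. The threshold is that of the methods, an unadjusted p under 0.05 and more than 2-fold. Permutation of 2 livers against 2 cannot give a two-sided p below 0.333. The procedure was tested on simulated data in which all genes had the same spread on the log2 scale, which need not hold in the livers. Other computations used Python 3.11.15 and SciPy 1.17.1. Named are all members, *Smarca4*, in each list the most abundant, the most changed and every gene past the threshold, and the 3 genes nearest in pattern to *Adra1b* and *Adrb3*. *Gnaq*, *Gna11*, *Rgs1*, *Rgs10*, *Rgs19*, *Maoa*, *Maob*, *Gnas*, *Adra1d*, *Adra2c* and the cell type markers were named after their values were seen. Alternatives were pseudocounts of 1 and 0.01, no filter and a filter at 1 FPKM, quantile normalization, rescaling by median ratios, a test without the trend, leaving out each liver, and a replicate block. After the data were seen, voom was added, on the estimated reads.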

Additional observations from a re-analysis of the deposited data

How the results depend on the processing

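The 121 genes past the threshold became 18 when 1 was added to the FPKM in place of 0.1, 80 with no filter, and 68 when a mean of 1 FPKM was required. Leaving out 1 liver gave 78 (without WT replicate 2) to 552 (without LKO replicate 1), where the lone liver of a genotype is assumed to vary like the others. The 2 genes past it around the receptors became 0 on adding 1, 5 on adding 0.01, 0 when a mean of 1 FPKM was required and 5 under voom, and 0 to 9 on leaving out 1 liver. *Adra1a* and *Adra1b* were past the threshold under 0 of the alternatives run. Their log2 fold changes changed sign on leaving out a liver, with ranges of −0.054 to 0.37 and −0.37 to 0.51, the negative ones being −0.054 for *Adra1a* without LKO replicate 1, and −0.37 and −0.024 for *Adra1b* without WT replicate 1 and LKO replicate 2. The log2 difference of *Adrb1*, 0.55, was 0.090 on adding 1 and 1.17 on adding 0.01. The *Adra1b* share, 85.7% over the 4 livers, was 80.5% in WT 1 and 93.0% in LKO 1 alone. The stricter filter tests fewer genes, and what caused the remaining shifts was not tested. With the replicate number as a block, 108 genes were past the threshold and the calls for *Adra1a* and *Adra1b* did not change. The numbers are not known to pair the livers, whose deviations correlated at 0.0307 across genes within a number. Depth limits *Adra2a*, *Adra2b* and *Adrb1*, none of which had over 38 reads in a liver. *Adra1a* was below the filter of 1 FPKM and has no value there.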
